A study of Homo sapiens with 18 samples.

Results

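The TBX4 libraries of an RNA-seq series on the TBX2 subfamily are described here against their pooled controls, with emphasis on what TBX4 changed and the other TBX plasmids did not. NCI-H1299 is an established human lung cancer line derived from a lymph node metastasis, and it lacks p53. The cells were transfected transiently with a plasmid for human Flag-tagged TBX4, and the 3 libraries (replicates a, b and c) were compared with 3 libraries of cells that received the empty vector (EV) and 3 labelled Ctl, that is 9 of the 18 libraries of the series. What the Ctl cells received is not given in the sources used here. The other 9 libraries came from cells given human Flag-tagged TBX2, human HA-tagged TBX3 or mouse HA-tagged Tbx5, 3 libraries each. All 6 groups shared the cell line and the growth medium, DMEM with low glucose and serum. The TBX4 and TBX2 plasmids were of 1 vector type and the TBX3 and Tbx5 plasmids of another, and the backbone of EV is not given, so for TBX4 against TBX3 or TBX5 the vector and the insert cannot be told apart. Transient transfection reaches only part of the cells, so in these bulk libraries a change in fewer cells and a smaller change in all cells cannot be told apart. The title of replicate c is numbered as a TBX4 sample but ends in TBX5. Nothing in the labels says that replicates were separate cultures, so p-values measure the spread between these libraries, which may be technical.

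T-box proteins are transcription factors that bind DNA through a shared domain, the T-box, and either activate or repress their targets. In the embryo TBX4 is best known for hindlimb outgrowth and for the mesenchyme of the lung bud, where it acts beside its paralog TBX5 and upstream of fibroblast growth factor signals. TBX2 and TBX3, the other pair of the subfamily, are mainly known as repressors, and cyclin-dependent kinase inhibitors are among the genes they repress.

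The transfected gene was checked first. TBX4 (GRCh37 chr17:59529765-59562471) had 94188, 109159 and 85197 reads in TBX4 replicates a, b and c, 1 read in the 6 controls together, and 6 to 19 reads in each of the other 9 TBX libraries. In scaled units this was 7976 ± 483 CPM (SD, n = 3), where CPM are reads relative to library sizes scaled by TMM, a method that balances most genes between libraries. The ratio to the controls was 517917, with a 95% interval of 92955 to 2.05e+07 that covers counting error only. TBX5 had 0, 0 and 1 reads in the 3 TBX4 libraries against 1161 to 1302 in the TBX5 libraries, so the counts of replicate c were those of TBX4 libraries and not of TBX5. Reads from the plasmid and from the endogenous gene cannot be told apart.

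Libraries held 7365221 to 11743179 counted reads, 9188954 to 10276199 with TBX4, and 3 reads, taken as the floor of detection, were 0.255 to 0.407 CPM before TMM scaling. The most counted gene, ENSG00000266658, for which the annotation gave no symbol, held 13.2%, 14.8% and 18.6% of the reads with TBX4. Its share was 30.3% to 40.2% in 5 controls, 12.4% in EV replicate c, 19.6% to 40.5% with TBX2, 10.7% to 47.4% with TBX3 and 22.5% to 53.5% with TBX5. The low share of the TBX4 libraries thus moved with the comparison, and was therefore also entered as a term in the model. The epithelial keratins KRT8 (319 to 613 reads in the 9 libraries) and KRT18 (589 to 1155) were present, KRT7 was low (1 to 15), and KRT19, EPCAM and CDH1 had at most 3 reads. The labels call the line lung adenocarcinoma, but defining markers of that tumour were near 0 (NKX2-1 at most 3 reads, NAPSA at most 8, SFTPC at most 1), as were those of fibroblasts (at most 6), blood cells (at most 12) and endothelium (at most 5).

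Of 15576 genes tested, those that exceeded 5 counts in 10 or more libraries of the series, 2031 differed between TBX4 and the controls at a false-discovery rate (FDR) of 0.1 in edgeR's quasi-likelihood test. Expression was higher for 1086 genes (6.97% of those tested) and lower for 945 (6.07%). Most changes were small, with a median absolute log2 fold change of 0.31 among these genes and a median standard error of 0.11 over all genes. A change of at least 1 on the log2 scale was more common upwards, in 131 genes, than downwards, in 20. All 3 TBX4 libraries lay above all 6 controls for 1066 genes (6.84%) and below them for 894 (5.74%). Between the control groups, EV against Ctl gave 44 genes higher and 16 lower. Without TBX4 replicate a, 1235 genes differed from the controls (706 higher and 529 lower), and 1223 without replicate b (734 higher and 489 lower). Without replicate c 792 genes were higher and 593 lower. List counts below with a TBX4 library left out stand against these numbers. In a share-adjusted model, in which the share of ENSG00000266658 was a term added after seeing the data, 465 genes were higher (2.99%) and 335 lower (2.15%). The split depended on the scaling, since by library totals, where the median of all genes moved from -0.01 to 0.25, 2775 genes were higher and 33 lower, and by totals without ENSG00000266658 898 were higher and 1221 lower.

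**Figure D1:**
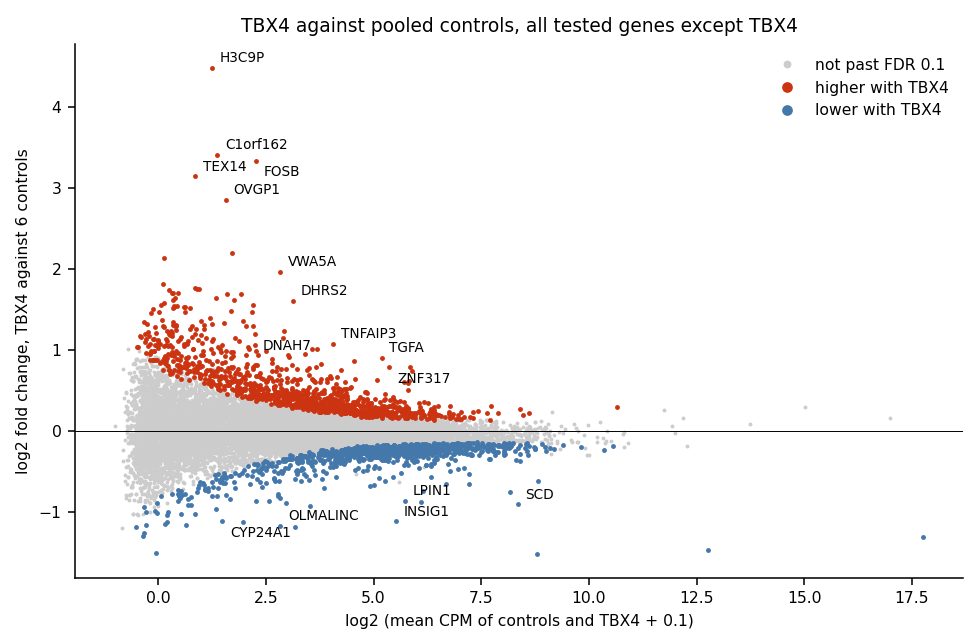
Log2 fold change of TBX4 against the 6 controls (vertical axis) by mean level (horizontal axis, log2 CPM) for all tested genes except TBX4. Red and blue points passed an FDR of 0.1, 1086 genes higher (TBX4 included in the count) and 945 lower, and the larger changes lie above 0.

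The genes with the largest rise were taken from those with a symbol and a mean of at least 1 CPM with TBX4. All 3 TBX4 libraries also had to lie above all 6 controls. The genes so taken included a transcription factor, germ cell proteins and a secreted glycoprotein. C1orf162 had 0.178 to 0.751 CPM in the 6 controls (median 0.433) and 4.57, 4.98 and 3.98 CPM in TBX4 replicates a, b and c, a log2 fold change of 3.41 ± 0.27 (SE), adjusted p = 2.0e-09. FOSB, a subunit of the AP-1 transcription factor, had 0.397 to 1.61 CPM in the 6 controls (median 0.751) and 7.93, 9.19 and 8.70 CPM with TBX4 (3.33 ± 0.21 (SE), adjusted p = 2.7e-11). FOSB rose with TBX2, TBX3 and TBX5 as well (log2 fold changes of 3.51, 2.22 and 2.84, adjusted p = 5.8e-11, 8.3e-06 and 9.1e-07). TEX14, a protein of the bridges between male germ cells, had 0.0980 to 0.621 CPM in the 6 controls (median 0.314) against 2.64, 3.27 and 3.33 CPM (3.14 ± 0.30 (SE), adjusted p = 7.1e-08). The lack of overlap between the TBX4 libraries and the controls in these genes was given by that choice. OVGP1, which encodes oviductal glycoprotein, went from 0.571 to 0.784 CPM in the 6 controls (median 0.686) to 4.48, 5.06 and 5.65 CPM (2.85 ± 0.20 (SE), adjusted p = 2.7e-10). VWA5A had 2.16 to 3.20 CPM in the 6 controls (median 2.96) and 10.7, 12.0 and 11.02 CPM with TBX4 (1.97 ± 0.13 (SE), adjusted p = 4.4e-11). Among the genes so taken, beside TBX4 itself, the largest change was that of the histone H3 pseudogene H3C9P (4.48 ± 0.33 (SE), adjusted p = 4.3e-10). Its reads may be shared with near-identical histone genes, and its change is therefore uncertain. H3C9P rose with TBX2, TBX3 and TBX5 as well (log2 fold changes of 4.65, 3.75 and 4.46 against the controls).

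Further genes of this group were low in the controls and stayed below 6 CPM on average with TBX4. They were DCAF4L1, the axonemal dynein gene DNAI7, the potassium channel subunit KCNS1, the sperm anchoring protein AKAP3, ARL10, the orphan nuclear receptor NR4A3, LY6G5C and the glutamate receptor GRM3, with log2 fold changes from 1.70 to 2.19 and adjusted p from 3.2e-07 to 0.0012. In the share-adjusted model GRM3 was the member with the weakest call (adjusted p = 0.053). NR4A3 rose with TBX2, TBX3 and TBX5 as well (log2 fold changes of 1.98, 1.19 and 2.12, adjusted p = 5.1e-04, 0.056 and 0.0011). Higher expressed genes rose by less. DHRS2, a short-chain dehydrogenase, rose from 4.20 ± 0.910 CPM (SD, n = 6) to 13.0 ± 0.465 CPM (SD, n = 3), a log2 fold change of 1.61 ± 0.13 (SE), adjusted p = 2.4e-09. TNFAIP3, an inhibitor of NF-kappaB signalling, rose from 10.6 ± 1.14 CPM to 22.4 ± 1.31 CPM (1.08 ± 0.09 (SE), adjusted p = 2.9e-09), and its 3 TBX4 libraries lay above all controls.

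Of the 15 genes with a symbol that fell most with all TBX4 libraries below all 6 controls, 4 act in lipid metabolism. INSIG1, a sensor that holds back the sterol-regulated transcription factors, had 47.4 to 76.0 CPM in the 6 controls (median 64.1) and 31.0, 29.3 and 27.3 CPM with TBX4, a log2 fold change of -1.11 ± 0.12 (SE), adjusted p = 5.0e-07. SCD, the desaturase that makes monounsaturated fatty acids, had 353 to 512 CPM in the 6 controls (median 411) and 228, 234 and 220 CPM (-0.90 ± 0.10 (SE), adjusted p = 3.9e-07). SREBF1, the transcription factor that drives fatty acid synthesis, had 65.8 to 113 CPM in the 6 controls (median 88.3) and 43.0, 54.0 and 48.2 CPM (-0.87 ± 0.13 (SE), adjusted p = 7.7e-05). In each of them every TBX4 library lay below every control, which was given by the choice. LPIN1, a phosphatidate phosphatase and lipid coregulator, fell in the same way (-0.86 ± 0.08 (SE), adjusted p = 7.9e-08). The long non-coding RNA OLMALINC (chr10:102132856-102213800), which starts 8.27 kb beyond the end of SCD on the same strand, had 7.77 to 11.2 CPM in the 6 controls (median 9.71) and 4.00, 4.28 and 4.81 CPM (-1.16 ± 0.13 (SE), adjusted p = 1.1e-06).

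Outside lipid synthesis, CYP24A1, the enzyme that inactivates vitamin D, had 3.08 to 5.04 CPM in the 6 controls (median 3.57) and 1.76, 1.87 and 1.48 CPM with TBX4 (-1.11 ± 0.20 (SE), adjusted p = 6.9e-04). The cell adhesion gene NTM (-0.92 ± 0.12 (SE), adjusted p = 6.1e-06) and the guanine deaminase GDA (-0.82 ± 0.13 (SE), adjusted p = 1.8e-04) fell too. Falls were ranked among genes with a symbol, at least 1 CPM on average in the controls and all TBX4 libraries below all controls. Among them the largest fall was that of the pseudogene BMS1P4. Its level went from 1.28 ± 0.279 CPM (SD, n = 6) to 0.454 ± 0.209 CPM (SD, n = 3), a log2 fold change of -1.50 ± 0.35 (SE), adjusted p = 0.0068. The remaining genes under the same rule, PSORS1C1, ZNF385D, LINC02977, TM4SF18, JAKMIP2 and RPL36AP44, changed by -1.15 to -0.80 on the log2 scale. PSORS1C1, ZNF385D, LINC02977 and RPL36AP44 were low in the controls (1.00 to 1.79 CPM) and lost their call without 1 TBX4 library (adjusted p = 0.14, 0.15 and 0.12 without replicate b and 0.39 without replicate c). None of these 4 passed against EV alone or in the share-adjusted model.

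**Figure D2:**
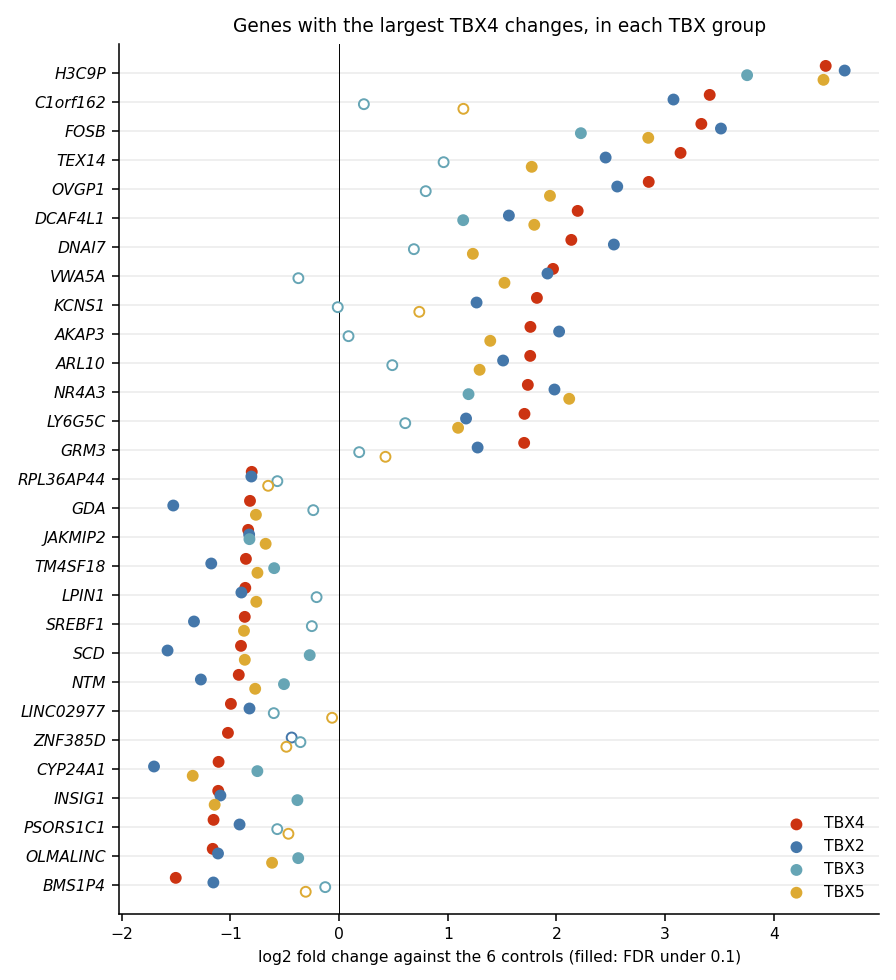
Log2 fold change against the 6 controls (horizontal axis) in the TBX4, TBX2, TBX3 and TBX5 groups. The genes are those with the largest changes with TBX4 among genes whose TBX4 libraries lay beyond all 6 controls, TBX4 itself left out. Filled points passed an FDR of 0.1 in that group, and all comparisons share the same controls. In C1orf162, VWA5A, KCNS1 and AKAP3 the TBX3 points lie near 0, far from those of TBX4.

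The sterol and fatty acid list moved most as a group. Of 33 enzymes and regulators 31 were tested, 21 fell (67.7%, against 6.07% of all tested genes), none rose at an FDR of 0.1 and the median log2 fold change was -0.35, against -0.01 for all tested genes. For each of the 21 all 3 TBX4 libraries lay below every control, as they did for 644 of the 945 lower genes of all kinds. The share-adjusted model had 18 lower (58.1%, against 2.15%). By library totals the list's median was -0.09 where that of all genes was 0.25. Fatty acid synthase, FASN, had 304 to 462 CPM in the 6 controls (median 321) and 179, 232 and 233 CPM with TBX4 (-0.75 ± 0.11 (SE), adjusted p = 8.5e-05). EV itself lowered 4 of these 31 genes relative to Ctl, against 16 of all 15576 tested genes. They were INSIG1 (-0.55, adjusted p = 4.7e-05), SCD (-0.45, 2.4e-04), SREBF1 (-0.62, 4.6e-06) and FASN (-0.42, 0.049). TBX4 was lower than EV alone in all 4, with adjusted p of 4.0e-08, 2.1e-08, 6.1e-05 and 6.1e-05. The fall was not particular to TBX4. Against the same controls 24 members fell with TBX2 (77.4%, against 15.6% of all tested genes; median -0.50), 11 with TBX3 (35.5% against 6.4%; -0.21) and 20 with TBX5 (64.5% against 6.12%; -0.43). In the direct comparisons TBX4 was lower than TBX3 in 14 members (45.2%, against 5.95% of all tested genes), higher than TBX2 in 9 (29.0%, against 5.61%), and different from TBX5 in none at an FDR of 0.1, where few genes of any kind passed (0.109% higher and 0.430% lower).

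Genes of cell division changed by small amounts. Of the 43 genes for mitosis and the spindle, 10 fell (23.3%, against 6.07% of all tested genes) and none rose (median -0.13, but 0.14 by library totals), ANLN, an actin-binding protein of the cleavage furrow, by most (-0.30 ± 0.05 (SE), adjusted p = 8.0e-04). NUSAP1 (-0.22 ± 0.06), KNL1 (-0.22 ± 0.06) and the proliferation marker MKI67 (-0.21 ± 0.06, adjusted p = 0.023) were lower too, higher by library totals, and did not pass against EV alone or in the share-adjusted model. Adjusted for the share, 1 member fell (2.33%, against 2.15%). Without TBX4 replicate b 2 of the 43 fell, where 489 of all 15576 tested genes did. For DNA replication 6 of 45 tested genes fell (13.3%), among them RFC4, MCM6 and PRIM1 at -0.21 each, and 1 rose, GINS4 of the replicative helicase (0.33 ± 0.09 (SE), adjusted p = 0.022), while with the share in the model 1 fell and none rose, and without TBX4 replicate a 1 fell and none rose. Compared with the same controls, 28 mitosis genes fell with TBX2 (65.1%), 11 with TBX3 (25.6%) and 20 with TBX5 (46.5%). Of the replication genes 24 (53.3%), 8 (17.8%) and 16 (35.6%) fell with these plasmids. The shares of all tested genes that fell were 15.6%, 6.4% and 6.12%. CDKN1A, the p21 inhibitor of cyclin-dependent kinases and a known target of TBX2 and TBX3, rose from 14.9 ± 3.11 CPM to 21.0 ± 3.04 CPM (0.50 ± 0.12 (SE), adjusted p = 0.0083). EV alone raised CDKN1A over Ctl by 0.53 (adjusted p = 0.017), and TBX4 passed neither against EV alone (0.12) nor in the share-adjusted model (0.25). CCNG2, a cyclin linked to growth arrest, rose (0.77 ± 0.14 (SE), adjusted p = 7.2e-04), and passed against EV alone as well (7.3e-05). In all, 4 of 32 tested CDK inhibitors and p53 targets rose (12.5%, against 6.97% of all tested genes) and 1 fell, and 1 rose after share adjustment (3.12%, against 2.99%).

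Stress and signalling lists held some of the highest fold changes, and their counts stand against 6.97% higher and 6.07% lower of all tested genes, or 2.99% and 2.15% in the share-adjusted model. Of 29 immediate-early genes, which respond within minutes to growth factors, 7 rose (24.1%) and 4 fell (13.8%), with FOSB first, followed by NR4A3 (1.74 ± 0.33 (SE), adjusted p = 0.0012), FOS (1.04 ± 0.20 (SE), adjusted p = 0.0015) and NR4A2 (1.02 ± 0.26 (SE), adjusted p = 0.012). After share adjustment 6 of the 29 rose and 2 fell, and NR4A2 did not pass (0.13), nor did it against EV alone (0.10). Of 20 NF-kappaB targets 5 rose (25%) and none fell, and 2 rose (10%) in the share-adjusted model, with CXCL2, a neutrophil chemokine (0.47 ± 0.07 (SE), adjusted p = 7.7e-05), TRAF1 (0.34 ± 0.09) and BIRC3 (0.24 ± 0.07) next to TNFAIP3. TRAF1 and BIRC3 did not pass against EV alone (0.19 and 0.37) or after share adjustment (0.29 and 0.39). Of 34 genes of the integrated stress and unfolded protein response 10 rose (29.4%) and 1 fell. Of 32 interferon-stimulated genes 6 rose (18.8%) and 1 fell, with a median of 0.16. ISG15 had 3.67 to 12.8 CPM in the 6 controls (median 7.65) and 13.8, 13.5 and 15.4 CPM with TBX4 (0.78 ± 0.22 (SE), adjusted p = 0.026), IFIT1 changed by 0.74 ± 0.26 (SE), adjusted p = 0.072, and DDX60 by 0.65 ± 0.15 (SE), adjusted p = 0.0054. The empty vector raised 9 of the 32 interferon genes over Ctl, against 44 of all 15576 tested genes. Among the 9 were ISG15 (1.43, adjusted p = 4.6e-06) and IFIT1 (1.57, 3.7e-05). Against EV alone, ISG15 (0.19) and IFIT1 (0.59) did not pass, and IFI27 did (0.015; 1.30 ± 0.29 (SE), adjusted p = 0.0045 against all controls). After share adjustment 1 interferon gene (3.12%) and 1 stress response gene (2.94%) rose, and ISG15, IFIT1 and DDX60 did not pass (0.45, 0.54 and 0.15). Without TBX4 replicate c 3 interferon genes rose, where 792 of all tested genes did, and without EV replicate a 10, where 1009 did. Without Ctl replicate b 5 stress response genes rose, where 948 of all tested genes did. IFIT1, TRAF1 and BIRC3 were among the calls that depended on 1 TBX4 library (adjusted p = 0.25 without replicate c, 0.11 without replicate b and 0.16 without replicate a).

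Developmental lists include the programmes that TBX4 is known for in the embryo. Of 45 signals and factors of lung bud and limb outgrowth 28 were tested, of which 3 rose (10.7%, against 6.97% of all tested genes) and 1 fell (3.6%, against 6.07%), and after share adjustment 1 rose and 1 fell. NOG, a secreted BMP antagonist, had 0.198 to 0.966 CPM in the 6 controls (median 0.516) and 1.68, 1.56 and 0.926 CPM with TBX4 (1.37 ± 0.33 (SE), adjusted p = 0.0087, but 0.14 after share adjustment). SPRY4, a feedback inhibitor of fibroblast growth factor signals, rose from 75.3 ± 5.34 CPM to 92.8 ± 2.02 CPM (0.30 ± 0.06 (SE), adjusted p = 0.0016), while its relative SPRY2 fell (-0.34 ± 0.07 (SE), adjusted p = 0.0029) and ETV4, a transcription factor of the same pathway, was higher (0.27 ± 0.09 (SE), adjusted p = 0.067, but 0.40 without TBX4 replicate b, 0.28 against EV alone and 0.43 after share adjustment). Of 33 genes of the TGF-beta and BMP response 5 rose (15.2%) and 3 fell (9.1%), and 3 and 1 did so after share adjustment (9.09% and 3.03%). The ligand GDF6 was higher (0.99 ± 0.27 (SE), adjusted p = 0.022, but 0.13 after share adjustment). Matrix genes moved both ways, 6 up (10.9%) and 7 down (12.7%) of 55, with 2 up without TBX4 replicate a and 1 up and 5 down after share adjustment, and with THBS1, a matrix glycoprotein, at 36.99 to 43.5 CPM in the 6 controls (median 42.9) and 26.7, 25.8 and 31.9 CPM with TBX4 (-0.58 ± 0.07 (SE), adjusted p = 6.5e-06). The regulator of epithelial-mesenchymal transition SNAI1 rose (1.31 ± 0.31 (SE), adjusted p = 0.0075) and 5 of the 17 tested genes of its list fell (29.4%, against 6.07% of all tested genes), among them the junction protein TJP1 (-0.29 ± 0.06 (SE), adjusted p = 0.0023). Without TBX4 replicate a 3 of that list fell, and in the share-adjusted model none did (adjusted p of TJP1 0.22) while SNAI1 still passed (0.098). Of 10 tested T-box targets from heart, limb and cell cycle 1 rose, CDKN1A (10%), and none fell, and after share adjustment none passed.

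Within the T-box family, 9 of 17 genes were tested. TBX3 had 1.37 to 3.33 CPM in the 6 controls (median 2.31) and 6.57, 6.69 and 6.85 CPM with TBX4 (1.55 ± 0.17 (SE), adjusted p = 7.0e-07), with 74 to 86 reads against 12 to 34 in the controls. Against the same controls TBX3 was higher with TBX5 as well, at 10.3 ± 2.76 CPM (2.22, adjusted p = 2.9e-07). It did not pass with TBX2, at 3.06 ± 0.871 CPM (0.44, adjusted p = 0.21). The TBX3 libraries held 135416 to 320890 TBX3 reads, and the part of reads carried over between libraries in these values was not tested. TBX2 itself had 3.07 to 4.83 CPM in the 6 controls (median 3.81) and 3.60, 3.58 and 2.59 CPM and did not pass (-0.22 ± 0.17 (SE), adjusted p = 0.49). EOMES was higher (0.63 ± 0.21 (SE), adjusted p = 0.065) and TBX1 lower (-0.62 ± 0.20 (SE), adjusted p = 0.055), and both lost the call when 1 TBX4 library was left out (0.20 and 0.28 without replicate b). After share adjustment TBX1 did not pass (0.29). Of the other lists, 4 of 20 histone demethylases rose (20%, against 6.97% of all tested genes) and none fell. After share adjustment 2 rose (10%, against 2.99%). KDM6B, which removes methyl groups from histone H3 lysine 27, led them (0.96 ± 0.14 (SE), adjusted p = 8.5e-05). Against the same controls 8 rose with TBX2 (40%, against 17% of all tested genes), 11 with TBX3 (55%, against 8.47%) and 6 with TBX5 (30%, against 6.55%). Of 8 arginine methyltransferases 1 fell (12.5%, against 6.07%), PRMT1 (-0.19 ± 0.06 (SE), adjusted p = 0.053). PRMT1 had an adjusted p of 0.31 without TBX4 replicate c, and its log2 fold change by library totals was 0.06, in the other direction. Of 24 ion channels and transporters 5 fell (20.8%, against 6.07% of all tested genes) and none rose. Without TBX4 replicate a 1 fell, and after share adjustment 2 fell (8.33%, against 2.15%). SLC8A1, the sodium-calcium exchanger, had the smallest p (-0.29 ± 0.07 (SE), adjusted p = 0.0066). Of 21 heat shock genes 3 rose (14.3%, against 6.97% of all tested genes, and 1 after share adjustment) and 1 fell, HSPA1A by most (0.30 ± 0.08 (SE), adjusted p = 0.017).

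**Figure D3:**
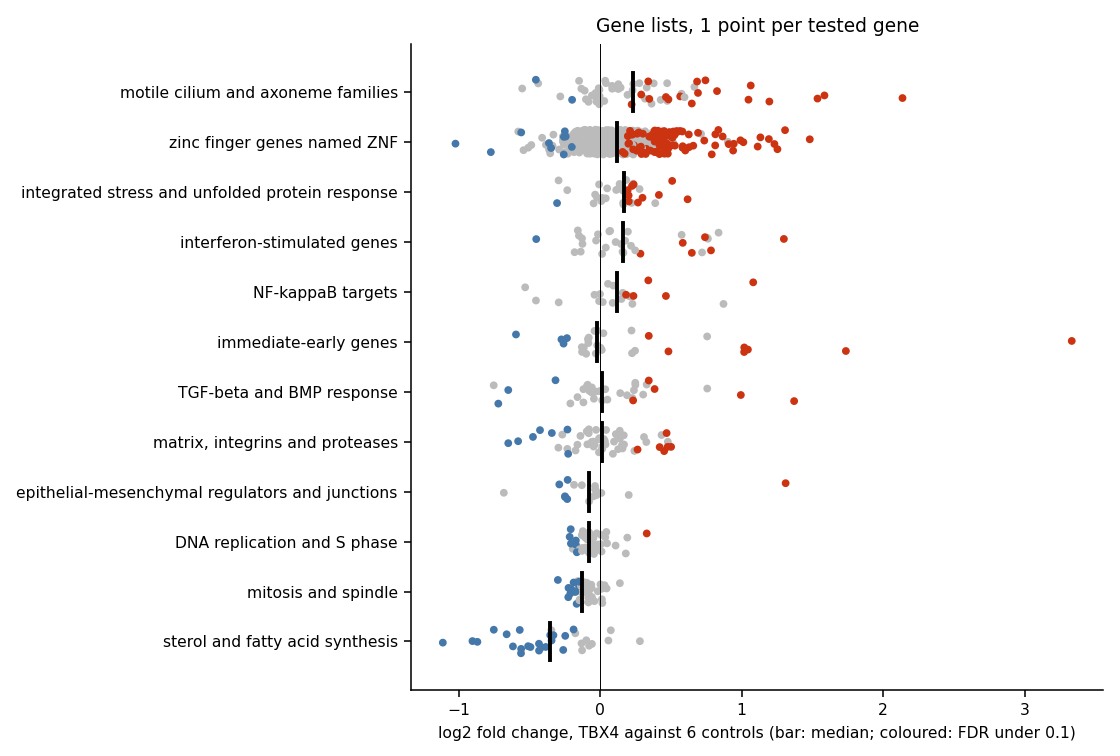
Log2 fold change of TBX4 against the 6 controls (horizontal axis) for the tested genes of 12 lists, 1 point per gene, with the median as a bar and genes past an FDR of 0.1 coloured (red higher, blue lower). The sterol and fatty acid list is shifted to the left as a whole, with 21 of 31 genes lower, while the axoneme families, a list chosen after values were seen, have 18 of 59 genes higher.

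The comparison with the other TBX plasmids was made in 1 fit of all 18 libraries. TBX4 differed from TBX2 in 1911 genes (874 higher, 5.61%, and 1037 lower, 6.66%) and from TBX3 in 1553 (626 higher, 4.02%, and 927 lower, 5.95%). From TBX5 it differed in 84 genes, 17 higher (0.109%) and 67 lower (0.430%). In the TBX5 group the share of ENSG00000266658 was highest, at over 50% in replicates b and c, and the count against TBX5 rose to 6534 genes by library totals, so the small number is no measure of likeness. Against the mean of the other 3 TBX groups, 486 genes passed, 214 higher (1.37%) and 272 lower (1.75%), but 82 without TBX4 replicate a or without TBX4 replicate b and 810 without TBX2 replicate b.

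Genes that passed against the controls and, in the same direction, against each of TBX2, TBX3 and TBX5 were rare. Besides TBX4 itself there was 1 higher gene, ZNF317 (2 of 15576 higher, 0.0128%), and 1 lower gene, the microRNA gene ENSG00000239776 (0.00642%). ZNF317, a zinc finger gene with a KRAB domain (chr19:9251073-9274100), had 25.6 to 32.3 CPM in the 6 controls (median 30.8) and 53.8, 54.3 and 48.3 CPM with TBX4, a log2 fold change of 0.79 ± 0.07 (SE), adjusted p = 7.7e-09. It was also raised by the other plasmids, to 45.4 ± 1.18 CPM with TBX2, 44.03 ± 2.57 CPM with TBX3 and 37.4 ± 2.53 CPM with TBX5 (SD, n = 3 each), and TBX4 was higher than each of them (adjusted p = 0.092, 0.038 and 0.0017). All 3 TBX4 libraries lay above the other 15. ZNF317 still passed in the share-adjusted model against the controls (8.3e-06) and against the mean of the other TBX groups (0.020), but no longer against every single one. It met the criterion for all of them in 18 of 31 alternative settings. Those in which it did not were DESeq2, both scalings by library totals, the fit without a count filter, the share-adjusted model, an FDR of 0.05, TBX5 without replicates b and c, and the fits without TBX2 replicate a, b or c, TBX3 replicate a or TBX4 replicate a or b. ENSG00000239776 had 142 to 1067 CPM in the 6 controls (median 651) and 141, 237 and 321 CPM with TBX4 (-1.51 ± 0.33 (SE), adjusted p = 0.0038), moved with the share of ENSG00000266658, and had a log2 fold change of 0.11 (adjusted p = 0.82) in the share-adjusted model.

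A wider group was taken after the values had been seen, the 149 genes that differed both from the controls and from the mean of the other TBX groups. Of these, 67 were higher and 42 lower in both comparisons, 27 were raised by TBX4 but less than by the other plasmids on average, and 13 were lowered by TBX4 but less than by the others. When both fits were share-adjusted, 25, 5, 5 and 0 genes of these classes passed both tests. For 22 of the 149 genes the 3 TBX4 libraries lay beyond all 15 others, 17 above and 5 below. Among all 15576 tested genes 33 lay above and 11 below. The 149 genes were picked by the same values, so the 22 are no separate support.

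TGFA, the EGF receptor ligand TGF-alpha (chr2:70674416-70781325), stood out among these genes by its level. It had 22.7 to 29.4 CPM in the 6 controls (median 24.99) and 48.5, 47.6 and 46.7 CPM with TBX4, a log2 fold change of 0.91 ± 0.07 (SE), adjusted p = 6.8e-10. TBX2 (21.5 ± 1.97 CPM) and TBX3 (20.3 ± 2.05 CPM) left it below the control mean of 25.2 CPM, and TBX4 was higher than both (adjusted p = 1.2e-10 and 7.4e-11). TBX5 raised it to 39.9 ± 2.37 CPM, and TBX4 against TBX5 did not pass (0.33), although no TBX5 library reached the TBX4 libraries. In the share-adjusted model the difference from the mean of the other groups had an adjusted p of 1.5e-08.

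C1orf162 was raised by TBX2 as well, to 3.62 ± 0.356 CPM against 4.51 ± 0.503 CPM with TBX4 (adjusted p of the difference 0.43), but had 0.443 ± 0.171 CPM with TBX3 and 1.04 ± 0.538 CPM with TBX5 (5.6e-07 and 5.6e-04). TEX14 showed the same order, 3.08 ± 0.381 CPM with TBX4, 1.95 ± 0.674 CPM with TBX2, 1.22 ± 0.392 CPM with TBX5 and 0.688 ± 0.317 CPM with TBX3, and differed from TBX3 (2.2e-04) and TBX5 (0.092) but not detectably from TBX2 (0.15). NMNAT3, an enzyme of NAD synthesis in mitochondria, had 2.49 to 4.11 CPM in the 6 controls (median 3.28) and 5.21, 5.99 and 5.83 CPM with TBX4 (0.79 ± 0.15 (SE), adjusted p = 0.0011), and was higher than with TBX3 (0.0012) and TBX5 (0.038). NAT1, an arylamine acetyltransferase, had 0.966 to 1.42 CPM in the 6 controls (median 1.16) and 2.88, 2.88 and 2.68 CPM (1.27 ± 0.21 (SE), adjusted p = 2.2e-04), and was higher than with TBX2 (0.095) and TBX3 (1.2e-04) but not TBX5 (0.39). For NMNAT3, NAT1, TEX14 and C1orf162 no other library of the series reached the TBX4 libraries. CFB, complement factor B, had means of 2.64 ± 0.972 CPM against 1.15, 1.197 and 1.53 CPM with TBX2, TBX3 and TBX5 and 1.16 CPM in the controls (1.19 ± 0.25 (SE), adjusted p = 0.0026 for TBX4 against the controls). It did not pass against TBX5 (0.43), and its TBX4 libraries ranged from 1.76 to 3.68 CPM and overlapped with other TBX libraries.

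Genes that TBX4 lowered below the mean of the other TBX groups changed by less. HNRNPUL2, EID2, SHFL and TJP1, named here, did not pass against every one of TBX2, TBX3 and TBX5. HNRNPUL2, an RNA-binding protein, had 8.13 to 12.9 CPM in the 6 controls (median 11.2) and 7.69, 7.39 and 7.68 CPM with TBX4 (-0.52 ± 0.13 (SE), adjusted p = 0.0088), below all 15 other libraries, and was lower than with TBX3 (0.018) and TBX5 (0.077). EID2, an inhibitor of differentiation, fell from 13.4 ± 0.937 CPM to 8.91 ± 0.898 CPM (-0.60 ± 0.10 (SE), adjusted p = 2.6e-04), and kept the call in the share-adjusted model (0.0059). SHFL, an interferon-induced antiviral factor, fell to 1.79 ± 0.226 CPM (-0.80 ± 0.20 (SE), adjusted p = 0.010) and was higher with TBX2, at 4.33 ± 0.808 CPM (adjusted p = 4.0e-04). TJP1 lay below all 15 other libraries as well. After share adjustment HNRNPUL2, SHFL and TJP1 did not pass against the controls (adjusted p = 0.10, 0.12 and 0.22).

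**Figure D4:**
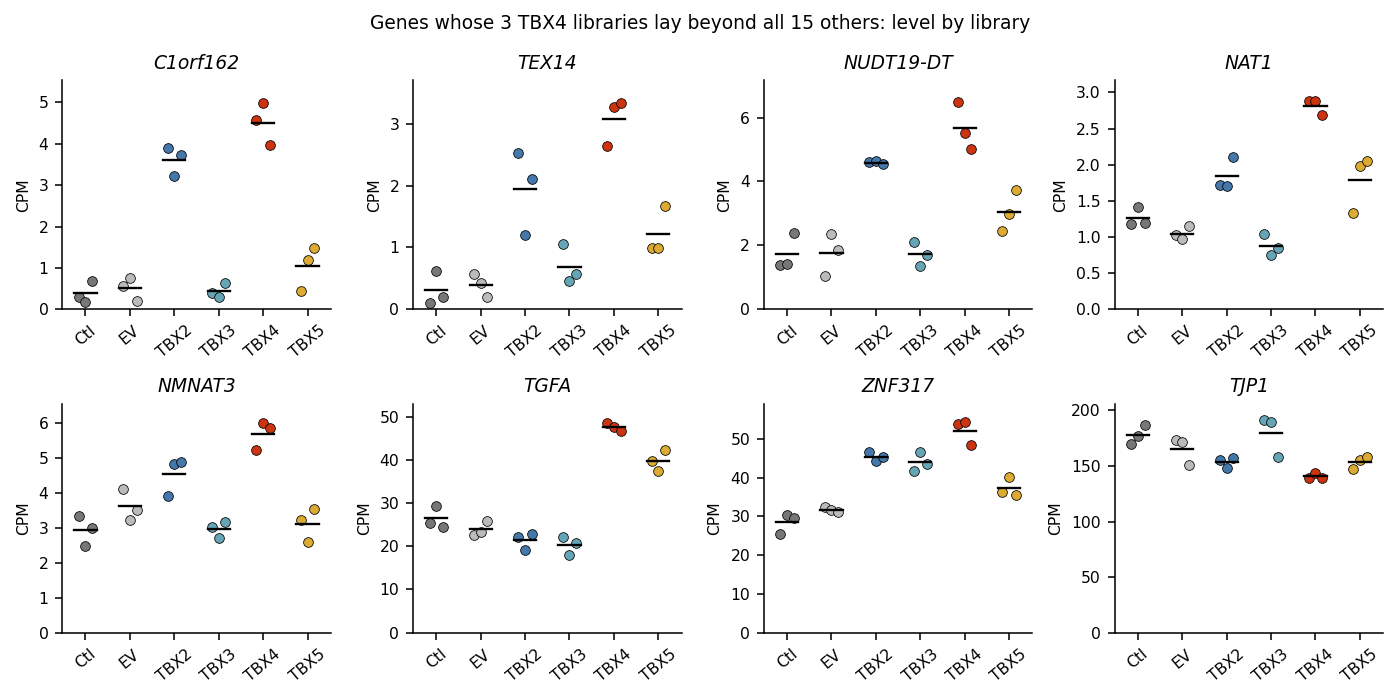
Level (vertical axis, CPM) in each library of the 6 groups (horizontal axis) for 8 genes whose 3 TBX4 libraries lay beyond all 15 others, with group means as bars. In TGFA the TBX4 libraries (48.5, 47.6 and 46.7 CPM) and, below them, the TBX5 libraries stand above the rest, while in C1orf162 the TBX2 libraries come next.

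Several stress genes were among the 27 that TBX4 raised less than the other plasmids did on average. EGR1, an immediate-early zinc finger factor, rose with TBX4 to 15.6 ± 1.11 CPM from 7.89 ± 3.24 CPM (1.02 ± 0.17 (SE), adjusted p = 2.9e-04), but reached 84.5 ± 18.3 CPM with TBX2 and 44.4 ± 9.38 CPM with TBX3 (adjusted p of the differences 7.0e-12 and 1.2e-06). DDIT3, the stress factor CHOP, was at 14.7 ± 0.142 CPM with TBX4 (0.62 ± 0.17 (SE), adjusted p = 0.018), 38.2 ± 6.07 CPM with TBX2 and 29.3 ± 4.47 CPM with TBX3 (5.0e-10 and 1.4e-06). DDIT3 and SESN2 did not pass against the controls after share adjustment (0.29 and 0.39). EV raised DDIT3 over Ctl (0.96, adjusted p = 9.7e-05), and against EV alone TBX4 did not pass for DDIT3 (0.20) or SESN2 (0.22). SESN2, a stress-induced inhibitor of growth signalling, showed the same pattern, with 11.9 ± 0.668 CPM, 28.4 ± 3.12 CPM and 24.99 ± 5.28 CPM with TBX4, TBX2 and TBX3. By list, TBX4 was lower than TBX2 in 22 of the 34 stress response genes (64.7%, against 6.66% of all tested genes) and lower than TBX3 in 11 (32.4%, against 5.95%), and lower than TBX2 in 30 of the 32 interferon genes (93.8%). No member of either list passed against TBX5, where 0.109% of all tested genes were higher and 0.430% lower. IFI6, an interferon gene, had 5.17 ± 0.452 CPM with TBX4 and 40.7 ± 2.80 CPM with TBX2 (4.6e-17). Heat shock genes separated TBX4 from TBX3, where HSPA1A reached 173 ± 34.7 CPM against 28.9 ± 0.893 CPM with TBX4 (1.8e-16), and 9 of 21 members were lower with TBX4 than with TBX3 (42.9%, against 5.95%).

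TBX5 is the closest paralog of TBX4 in the subfamily, and the genes named for this comparison were chosen after their values were seen. TBX5 itself is under the count filter. Among the tested genes with a symbol, and beside TBX4 itself, the largest difference that passed was that of NPTX1, a secreted neuronal pentraxin, at 1.48 ± 0.449 CPM with TBX4 and 8.98 ± 0.767 CPM with TBX5 (adjusted p = 8.9e-09). Both were above the control mean of 0.627 CPM, and TBX4 against the controls passed (1.23 ± 0.29 (SE), adjusted p = 0.0080), but not without TBX4 replicate a (0.10) or after share adjustment (0.15). NOG followed the same order, with 1.39 ± 0.405 CPM and 5.52 ± 2.64 CPM (0.0018). For KCNK6 and FSTL3 the TBX4 libraries did not differ detectably from the controls (0.70 and 0.43) while TBX5 was higher than TBX4, at 4.92 ± 0.820 CPM against 2.03 ± 0.0940 CPM and 6.80 ± 1.23 CPM against 3.35 ± 0.469 CPM. In the other direction, TBX4 was higher than TBX5 in C1orf162, TEX14, OVGP1, NUDT19-DT, NMNAT3 and ZNF317, and in ITGAM, a leukocyte integrin, at 5.20 ± 0.592 CPM against 2.88 ± 0.292 CPM (0.055). Without TBX5 replicates b and c, in which ENSG00000266658 held over 50% of the reads, 19 genes differed between TBX4 and TBX5, and with its share as a term 22.

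The filter of 10 libraries leaves out genes that a single plasmid switches on, since 3 libraries cannot pass it. A fit of all 40841 genes with at least 1 count was therefore read for the 25265 genes under the filter. There 381 genes were higher with TBX4 than in the controls (1.51%) and 34 lower (0.135%), and 60 of the 381 had at least 30 reads in the 3 TBX4 libraries together. Genes that pass through the group in which they are high had to differ, so these numbers describe the genes and are no measure of how TBX4 acts overall. The values are read counts, not scaled, and EV replicate c, in which ENSG00000266658 held a share like that in the TBX4 libraries, is given beside them.

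Under the filter 3 genes were higher with TBX4 than in the controls and than with each other plasmid. ERICH3, a glutamate-rich protein, had 18, 13 and 20 reads with TBX4, 0, 3 and 0 in Ctl, 0, 1 and 1 in EV, and at most 5 in any other library, a log2 fold change of 4.02 ± 0.50 (SE), adjusted p = 9.7e-13. WDR49, a WD-repeat gene, had 12, 22 and 12 reads with TBX4, 1, 0 and 2 in Ctl and 2, 3 and 2 in EV (2.96 ± 0.45 (SE), adjusted p = 2.7e-08). MARVELD2, the tight junction protein tricellulin, had 15, 26 and 21 reads with TBX4, 0, 2 and 2 in Ctl and 5, 3 and 1 in EV (3.03 ± 0.40 (SE), adjusted p = 1.3e-11). For each of these genes every TBX4 library lay above every other library of the series. The adjusted p against TBX2, TBX3 and TBX5 was 0.0095, 4.1e-07 and 0.068 for ERICH3, 0.0017, 7.3e-04 and 0.0042 for WDR49, and 0.0080, 2.1e-05 and 0.014 for MARVELD2.

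Of other genes under the filter, named after their values were seen, MUC4, ADH1C and ACRBP had partners among the other plasmids. MUC4, a membrane mucin, had 25, 34 and 23 reads with TBX4 and 33, 42 and 43 with TBX5, and 1 read in the 6 controls together, a ratio of TBX4 to controls of 147 (95% counting interval 25.7 to 5883). TBX4 was lower than TBX5 (adjusted p = 4.7e-06), and TBX2 and TBX3 libraries had at most 2 MUC4 reads. ADH1C, an alcohol dehydrogenase, had 10, 10 and 11 reads with TBX4 and none in the 6 controls, which makes TBX4 at least 18.5-fold higher than a floor of 3 reads over the controls, and had 6, 11 and 4 with TBX2. ACRBP, an acrosin-binding protein of sperm, had 24, 16 and 10 with TBX4, 21, 22 and 10 with TBX2 and at most 3 elsewhere (4.26 ± 0.53 (SE), adjusted p = 4.5e-13). SLC6A20, an amino acid transporter, had 13, 13 and 7 reads with TBX4 and at most 2 in any other library, but did not pass against TBX5 (0.29). TCTE1, a protein of the flagellar axoneme, had 11, 19 and 8 reads with TBX4 and at most 3 in any other library (4.66 ± 0.63 (SE), adjusted p = 1.0e-10 against the controls). TCTE1 did not pass against every other plasmid. EV replicate c had 0 reads of MUC4, ADH1C, SLC6A20 and ACRBP, 1 of ERICH3 and 2 of TCTE1.

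**Figure D5:**
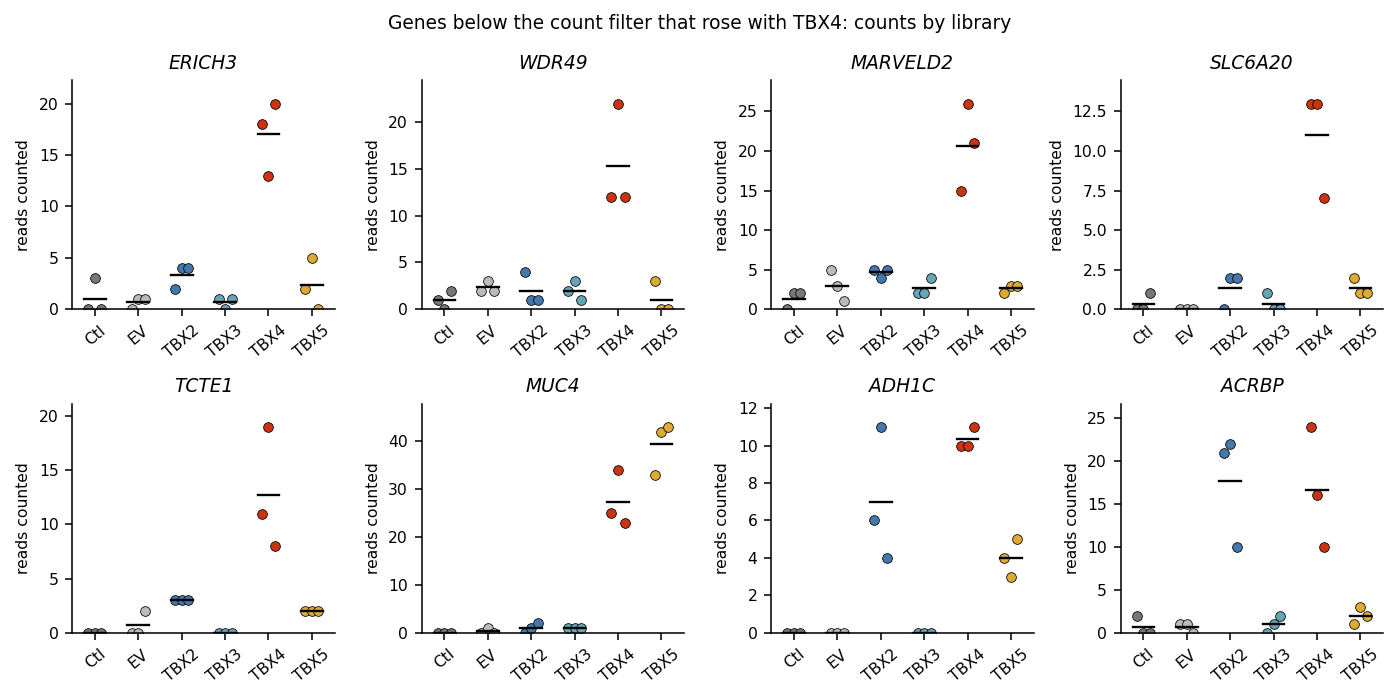
Unscaled read counts (vertical axis) in each library of the 6 groups (horizontal axis) for 8 genes below the count filter, with group means as bars. ERICH3, WDR49, MARVELD2, SLC6A20 and TCTE1 are high in the 3 TBX4 libraries alone, MUC4 also with TBX5, and ADH1C and ACRBP also with TBX2.

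The promoters of genes particular to TBX4 were searched for the T-box binding element AGGTGTGA and its core GGTGTG on both strands, from 250 bases before to 50 after the RefSeq start (GRCh38.p14). The element was held by 0.98% of all 35116 promoters and the core by 16.8%, which lies within the element. Among tested genes with a promoter the shares were 0.727% and 14.7%, among those that rose with TBX4 1.12% and 15.3% (803 genes matched), and among those that fell 0.546% and 15% (732 genes). Of the genes higher both than the controls and than the mean of the other TBX groups, 1 of 44 matched promoters held the element (2.27%) and 10 the core (22.7%), and of the genes that rose under the filter 4 of 196 (2.04%) and 34 (17.3%). The promoters of ZNF317, MARVELD2 and WDR49 held neither, and that of ERICH3 held the core once. The sequences below are those of the tested gene that rose with TBX4 beyond each other plasmid (ZNF317, chr19:9140147-9140446, plus strand), of the gene under the filter whose promoter held the core (ERICH3, chr1:74673743-74674042, minus strand) and, for contrast, of a gene that fell and also held the core (SCD, chr10:100346983-100347282, plus strand). They were chosen after values were seen, are written 5′ to 3′ in the direction of transcription, and capitals mark the core. A match is a match of letters and not a shown binding site.
ZNF317: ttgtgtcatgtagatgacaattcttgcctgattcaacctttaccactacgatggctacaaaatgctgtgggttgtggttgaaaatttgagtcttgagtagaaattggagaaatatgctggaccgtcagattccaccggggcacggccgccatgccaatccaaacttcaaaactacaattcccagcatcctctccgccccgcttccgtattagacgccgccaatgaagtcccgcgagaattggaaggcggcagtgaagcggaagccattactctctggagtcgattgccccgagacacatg
ERICH3: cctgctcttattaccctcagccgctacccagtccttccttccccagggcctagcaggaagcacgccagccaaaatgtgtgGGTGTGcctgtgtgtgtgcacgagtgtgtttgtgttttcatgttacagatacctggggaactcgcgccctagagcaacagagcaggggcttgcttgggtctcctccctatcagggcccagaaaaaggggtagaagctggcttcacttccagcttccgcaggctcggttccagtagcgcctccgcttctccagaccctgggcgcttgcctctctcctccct
SCD: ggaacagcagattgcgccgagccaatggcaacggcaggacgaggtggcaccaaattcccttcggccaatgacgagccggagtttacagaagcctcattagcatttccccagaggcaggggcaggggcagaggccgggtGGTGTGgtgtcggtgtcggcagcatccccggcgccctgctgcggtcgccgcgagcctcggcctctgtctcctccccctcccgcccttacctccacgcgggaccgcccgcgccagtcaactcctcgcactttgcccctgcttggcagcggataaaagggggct

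Several of the genes that rose belong to the axoneme, the microtubule core of motile cilia and flagella. Families of dynein arm, radial spoke, assembly and associated proteins were therefore taken by symbol, after values were seen and without a test. Of 59 such genes tested 18 rose (30.5%, against 6.97% of all genes) and 2 fell, ODAD2 and CFAP97, neither of which passed without 1 TBX4 library or after share adjustment, with a median log2 fold change of 0.23. Adjusted for the share of ENSG00000266658, 9 rose (15.3%, against 2.99%). Without TBX4 replicate b 10 rose, where 734 of all tested genes did. DNAH7, an inner arm dynein heavy chain, had 2.45 to 3.06 CPM in the 6 controls (median 2.82) and 6.01, 6.54 and 6.94 CPM with TBX4 (1.196 ± 0.14 (SE), adjusted p = 1.9e-06). RSPH4A, a radial spoke head protein, had 1.34 to 2.04 CPM in the 6 controls (median 1.72) and 3.84, 3.81 and 3.15 CPM (1.064 ± 0.19 (SE), adjusted p = 4.5e-04). For both genes all TBX4 libraries lay above the controls. DNAI7 (2.14 ± 0.30 (SE), adjusted p = 2.8e-05), DNAI3 (1.59 ± 0.32 (SE), adjusted p = 0.0020) and the central pair genes CFAP54 (1.54 ± 0.28 (SE), adjusted p = 7.3e-04) and SPAG17 (0.83 ± 0.18 (SE), adjusted p = 0.0032) rose too. Under the filter DNAAF1, a dynein assembly factor, had 23, 20 and 14 reads with TBX4 and 0 to 3 in the controls (3.14 ± 0.42 (SE), adjusted p = 4.7e-11). In the direct comparisons 11 of the 59 were higher with TBX4 than with TBX3 (18.6%, against 4.02% of all tested genes) and none lower, and 10 were lower with TBX4 than with TBX2 (16.9%, against 6.66%) and none higher. Against TBX5 none passed, as did few genes of any kind (0.109% higher and 0.430% lower). The rise was not particular to TBX4. Compared with the 6 controls, 27 of the 59 rose with TBX2 (45.8%, against 17% of all tested genes). With TBX5 11 rose (18.6%, against 6.55%) and with TBX3 1 (1.69%, against 8.47%).

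Zinc finger genes were a second family taken by symbol after values were seen. Of 507 tested genes whose symbol begins with ZNF and a number, 101 rose (19.9%, against 6.97% of all tested genes) and 10 fell (2.0%, against 6.07%), with a median log2 fold change of 0.12, and 44 rose (8.68%, against 2.99%) and 4 fell with the share of ENSG00000266658 in the model. Without TBX4 replicate a 64 rose, where 706 of all tested genes did. ZNF615 had 3.88 to 4.90 CPM in the 6 controls (median 4.42) and 10.7, 10.1 and 10.6 CPM with TBX4 (1.23 ± 0.11 (SE), adjusted p = 3.2e-08), and ZNF596 had 1.15 to 2.18 CPM in the 6 controls (median 1.54) and 4.73, 4.98 and 4.17 CPM (1.48 ± 0.18 (SE), adjusted p = 5.2e-06). Reads of such related genes can be split between copies. Against the same controls 181 of these genes rose with TBX2 (35.7%, against 17% of all tested genes), 145 with TBX3 (28.6%, against 8.47%) and 94 with TBX5 (18.5%, against 6.55%). TBX4 was lower than TBX2 in 47 (9.27%, against 6.66%) and higher in 23 (4.54%, against 5.61%), and it was lower than TBX3 in 61 (12.0%, against 5.95%) and higher in 18 (3.55%, against 4.02%).

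Position in the genome linked a pair of the strongest genes. OVGP1 (chr1:111956941-111970357, minus strand) and C1orf162 (chr1:112016414-112021134, plus strand) lie 46.1 kb apart and point away from each other. Between them 5 genes were tested, looked at after the pair had been seen. The pseudogene UBE2FP3 (1.07 ± 0.31 (SE), adjusted p = 0.032) and ENSG00000260948 (1.16 ± 0.25 (SE), adjusted p = 0.0041), both nearer to OVGP1, rose, and ENSG00000243960 did not pass (0.62 ± 0.35 (SE), adjusted p = 0.31). The ubiquitously expressed genes WDR77 (0.08 ± 0.09 (SE), adjusted p = 0.66) and ATP5PB (0.12 ± 0.05 (SE), adjusted p = 0.20), which lie next to C1orf162, did not pass. TBX2 raised OVGP1 (2.56, adjusted p = 1.8e-08) and C1orf162 (3.08, 1.2e-07) as well, whereas TBX4 exceeded TBX3 in both, by 2.06 and 3.18 on the log2 scale (adjusted p = 5.6e-07 for each).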

How the data were processed

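Per the labels and the study's methods, total RNA of NCI-H1299 cells was sequenced, base calls were converted with bcl2fastq 1.8.4, reads aligned with STAR 2.3.0 to GRCh37 and counted per gene with featureCounts at default settings, and the authors deposited 1 table of raw counts (63677 genes, 18 libraries), which were used as deposited. A test of the authors with DESeq2 was not used.

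Tested genes exceeded 5 counts in 10 or more of the 18 libraries (15576, of which 14293 had a symbol in the GENCODE annotation lifted to GRCh37). edgeR 4.0.16 in R 4.3.3 (limma 3.58.1) gave TMM factors, CPM on TMM-scaled library sizes and quasi-likelihood tests, with Benjamini-Hochberg adjustment at an FDR of 0.1. SE is the absolute log2 fold change divided by the square root of F. TBX4 was compared with the 6 controls in a fit of these 9 libraries, and with the other TBX groups in a fit of all 18. EV was compared with Ctl in a fit of its own. Genes of near-identical families may share reads. DESeq2 1.42.0, other scalings, filters and thresholds, each control group alone, a replicate block and leaving out each library were the alternatives. A term for the log2 share of reads of ENSG00000266658 (share-adjusted model), and TBX5 replicates b and c left out together, were added after seeing the data. On simulated counts for 15576 genes with 200 changed genes, 99.5% of the changed genes were recovered for TBX4 against controls, with 7.01% of calls false, and 99% for TBX4 against the other TBX groups, with 8.76% false. These rates describe those simulated counts only. The rates of recovery and of false calls in the measured libraries were not tested.

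Gene lists, and the comparison itself, were chosen with earlier results of these data known. Genes were named by rule: the transfected genes, the 15 genes with a symbol and the largest change in each direction that lay beyond all controls and reached 1 CPM in the higher group, genes particular to TBX4, and up to 4 members of each list with the largest change past the threshold. Genes described as named after their values were seen fall outside this rule, and a list member that the rule names is not reported here. Coordinates of genes are GRCh37 and those of promoter sequences, from RefSeq, are GRCh38.p14. Replicate letters did not pair the samples (correlations of same-letter deviations from -0.09 to 0.05), so the block is an alternative. Total counts per library, 7365221 to 11743179, set the precision, and intervals and floors cover counting error only.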

Additional observations from a re-analysis of the deposited data

Results flagged for a closer look

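Among 134 named genes, 8 had 1 control library far from the other 5 by Dixon's criterion for 6 values, which chance alone gives in about 1 in 20 groups. TBX4 was at 0.0992 CPM in Ctl replicate c, its only read in the controls. CYP24A1 was high in EV replicate b at 5.04 CPM, and SLC8A1 in Ctl replicate a at 47.7 CPM. SERPINE2 was high in EV replicate c at 3.51 CPM and CLDN1 in EV replicate a at 26.6 CPM. GINS4 was low in Ctl replicate c at 11.2 CPM, CFB in EV replicate b at 0.644 CPM and NKRF in EV replicate c at 13.7 CPM. Ctl replicate c, EV replicate b and EV replicate c had 2 of the 8 values each, and Ctl replicate a and EV replicate a 1 each.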

How the results depend on the processing

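Small fold changes, a share of the most counted gene that moved with the groups, and 3 libraries per TBX group limit these results, and depth leaves genes near the floor of 3 reads undetectable rather than absent. For TBX4 against the controls, DESeq2 called 1361 genes, the threshold of 0.05 1361, the Ctl libraries alone 1812 and the EV libraries alone 1444. The share-adjusted model gave 800 genes against the controls, 185 against the mean of the other TBX groups, 22 against TBX5 and 1 particular to TBX4. By library totals 2808 genes differed from the controls (2775 higher and 33 lower), 134 from the mean of the other groups (125 higher and 9 lower), 76 from TBX2 (25 higher and 51 lower), 110 from TBX3 (100 higher and 10 lower) and 6534 from TBX5 (6522 higher and 12 lower), with 8 particular to TBX4. Totals without the most counted gene gave 2119 against the controls (898 higher and 1221 lower) and 254 against the mean of the others. Without a filter beyond 1 count, 154 genes differed from TBX5 and 18 were particular to TBX4, 4 higher and 14 lower. With at least 10 counts in every library, and with DESeq2, 1 was particular to TBX4. Without TBX5 replicates b and c, 290 differed from the mean of the others, 19 from TBX5 and 1 was particular. At an FDR of 0.05 the counts were 193 against the mean of the others, 1264 against TBX2, 943 against TBX3, 38 against TBX5 and 1 particular. The causes of these differences were not tested, beyond the fewer genes or samples that some settings hold.

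Leaving out each library gave 1223 to 2249 genes against the controls, 82 to 810 against the mean of the others, 1180 to 2128 against TBX2, 857 to 1771 against TBX3, 17 to 100 against TBX5 and 1 to 6 particular to TBX4. With the replicate letter as a replicate block 1691 genes differed from the controls, 394 from the mean of the others and 2 were particular. The letters share no more than a name here, and the block left 11 of 173 results on named genes short of the threshold.

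Over those 173 results, 19 values changed sign, all but those of AC079949.1, which is ENSG00000239776 (0.11 with share adjustment), and KCNK6 (-0.0051 against EV alone) by library totals. Against the controls these were CFAP97 0.070, CLDN1 0.013, DAPK3 0.043, DNAJB6 0.077, KNL1 0.044, MCM6 0.051, MKI67 0.059, NKRF 0.0019, NUSAP1 0.042, PRIM1 0.054, PRMT1 0.063, RFC4 0.045, TBX2 0.033 and ZEB2 0.020. Against the mean of the other TBX groups they were DAPK3 0.047, RPS6KA5 0.0087 and SKI 0.025. Other values kept their direction, and 512 of them fell short of the threshold, 74 with share adjustment and 230 when 1 library was left out.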

Other observations

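Members of the AP-1 and related immediate-early families moved in opposite directions with TBX4. JUND, the AP-1 subunit common in resting cells, fell by most (-0.59 ± 0.09 (SE), adjusted p = 9.8e-05) while JUNB (0.48 ± 0.10 (SE), adjusted p = 0.0036) and the repressor KLF10 (0.34 ± 0.06 (SE), adjusted p = 4.2e-04) rose beside FOSB and FOS. ZEB2, a repressor of epithelial genes, was lower (-0.25 ± 0.07 (SE), adjusted p = 0.032). It did not pass against EV alone (0.15), without TBX4 replicate b (0.18) or after share adjustment, where its log2 fold change was -0.11 (adjusted p = 0.59), and it was 0.02 by library totals. Below the count filter, the neighbouring transporter genes SLC6A12 and SLC6A13 on chromosome 12 had 17, 13 and 7 and 21, 25 and 13 reads with TBX4, against 7 and 12 in the 6 controls together (3.12 ± 0.52 (SE), adjusted p = 3.7e-07 and 3.07 ± 0.41 (SE), adjusted p = 3.4e-11).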
